A study of Mus musculus with 6 samples.

Results

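This account covers 10 genes with which the gut epithelium holds microbes at a distance or makes reactive oxygen and nitrogen: *Reg3b*, *Reg3g*, *Reg4*, *Lypd8*, *Ang4*, *Duox2*, *Duoxa2*, *Nos2*, *Saa1* and *Saa3*. They were taken by gene symbol from the expression table of mouse colon, and all 10 were found among its 17778 genes. Colon RNA came from 3 obesity-prone (OP) and 3 obesity-resistant (OR) mice, each sequenced as its own library. All 6 were wild-type male C57BL/6J mice fed a high-fat diet for 16 weeks and 21 weeks of age at classification. OP mice came from the upper quartile of weight gain on that diet and OR mice from the lower quartile, so both groups ate the same food and neither was a lean, normally fed control. The comparison asks whether the defence genes of the colon differed between mice that gained much and little weight. Expression is given as FPKM, the fragments of a gene scaled to its transcript length and to the mapped fragments of the mouse. FPKM is relative to the other genes of the same mouse, so comparisons between mice depend on this scaling.

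The colon is lined by 1 layer of epithelial cells under mucus. Absorptive colonocytes and mucus-making goblet cells release proteins that bind or damage bacteria, and interleukin-22, interleukin-17 and bacterial products are known to induce several of these genes through STAT3 and NF-kappaB. The dual oxidase DUOX2, which leaves the endoplasmic reticulum only with its maturation factor DUOXA2, releases hydrogen peroxide at the cell surface, and NOS2 makes nitric oxide. Serum amyloid A proteins bind retinol and lipids and are made in the gut as well as in the liver.

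None of the 10 genes passed the test between OP and OR mice. They varied widely between mice, up to 819-fold over the 6 mice in *Reg3b*. *Reg3b* and *Reg3g* ranked the 6 mice in the same order, and *Duox2* and *Duoxa2* ranked them in another shared order. Mice high in the first pair were mostly low in the second. The correlation of *Reg3g* with *Duox2* did not pass after adjustment over the 6 gene pairs compared.

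*Reg3b* and *Reg3g*, which encode C-type lectins that bind bacterial cell walls, lie on chromosome 6 with starts 97989 bases apart. The 250 bases before each start are shown because these neighbours had the same order of mice. They were taken from RefSeq (GRCm38.p6, a build other than that named in the processing notes) and are written 5′ to 3′ in the direction of each gene. *Reg3b* lies on the plus strand (chr6:78370635-78370884) and *Reg3g* on the minus strand (chr6:78468875-78469124). Capitals mark TATAAA and the STAT palindrome TTCNNNGAA, each searched on both strands.
Reg3b: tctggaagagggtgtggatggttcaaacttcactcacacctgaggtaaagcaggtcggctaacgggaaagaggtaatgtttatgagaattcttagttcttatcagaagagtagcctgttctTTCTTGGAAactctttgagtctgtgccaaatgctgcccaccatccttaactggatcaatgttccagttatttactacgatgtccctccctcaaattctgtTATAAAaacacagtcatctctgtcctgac
Reg3g: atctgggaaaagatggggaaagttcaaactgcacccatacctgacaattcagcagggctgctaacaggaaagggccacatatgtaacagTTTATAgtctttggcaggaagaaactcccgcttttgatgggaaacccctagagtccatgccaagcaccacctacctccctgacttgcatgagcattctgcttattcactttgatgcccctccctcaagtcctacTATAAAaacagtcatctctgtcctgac

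In the alignment of these upstream sequences, 173 of 253 positions were identical (68.38%). Their longest shared run was the last 20 bases before the start, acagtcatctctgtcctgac. TATAAA was found at −29 to −24 from the *Reg3b* start and at −27 to −22 and −161 to −156 from the *Reg3g* start. It was also found at −30 to −25 from the *Duoxa2* start, and 12.37% of the 32851 RefSeq promoters of 250 bases held it. The STAT palindrome was found in *Reg3b* at −129 to −121 and in *Ang4* at −192 to −184, against 7.02% of all promoters. A looser outline of the NF-kappaB motif was found in *Reg3g*, *Saa1* and *Lypd8* and in 45.8% of all promoters, so it separates few genes. *Duox2* and *Duoxa2* lie head to head on chromosome 2, with starts 673 bases apart on opposite strands. The upstream sequences of *Duox2* and *Duoxa2* had 46.59% identical positions and those of *Saa1* and *Saa3* 48.51%, with no shared run longer than 8 bases in either pair. A match of letters is a description and not a site of binding. Of the 10 genes, 9 had an entry in the promoter table.

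OP mouse 2 stood apart from the other 5 mice in several Hox genes, which are expressed in regional patterns along the body axis. *Hoxb13* had 46.88 FPKM in OP mouse 2 and at most 1.29 FPKM in every other mouse. *Hoxa13* had 29.54 FPKM there and 0.27 to 3.58 FPKM elsewhere, and *Hoxb6* had 6.11 FPKM there and 39.96 to 101.56 FPKM elsewhere. These Hox genes were chosen after their values were seen. Of the other Hox genes examined, *Hoxb7* and *Hoxb8* were also lowest in OP mouse 2, while *Hoxb9* (19.91 FPKM) and *Hoxd13* (0.14 FPKM) lay within the range of the other mice. The differences of the 10 genes and the counts of the gene lists are therefore given with and without OP mouse 2. Epithelial markers were abundant, and their summed level was 14390 to 18370 FPKM in OP mice and 14600 to 17220 FPKM in OR mice, with *Krt8*, *Krt19* and *Lgals4* at the top. The values of a mouse summed to 585350 to 600028 FPKM over all genes, with 16287 to 16619 genes above 0. The medians of the genes tested differed more. They were 7.67, 9.72 and 10.44 FPKM in OP mice 1, 2 and 3 and 10.73, 9.455 and 10.51 FPKM in OR mice 1, 2 and 3. The number of reads behind all these values is not known, so counting error cannot be given.

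By limma-trend on log2(FPKM + 1), a call needed a Benjamini-Hochberg q-value below 0.2 and a ratio of 1.2 or more, or of 0.83 or less. Of the 10 genes, 0 were called, where 0.0222% of the 13520 genes tested were called. An unadjusted p below 0.05 was reached by 0 of the 10 genes and by 4.03% of all genes tested. The OP and OR values overlapped in all 10 genes, and 8.44% of all genes tested had groups that did not overlap. All 10 genes passed the filter on low values, which kept genes with 3 or more mice at or above 0.5 FPKM. The fitted difference was above 0 in 6 genes and below 0 in 4, with a median of 0.15 on the log2 scale, beside a median of −0.10 over all genes tested. Without a test passed, these signs describe these 6 mice and no more.

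**Figure D1:**
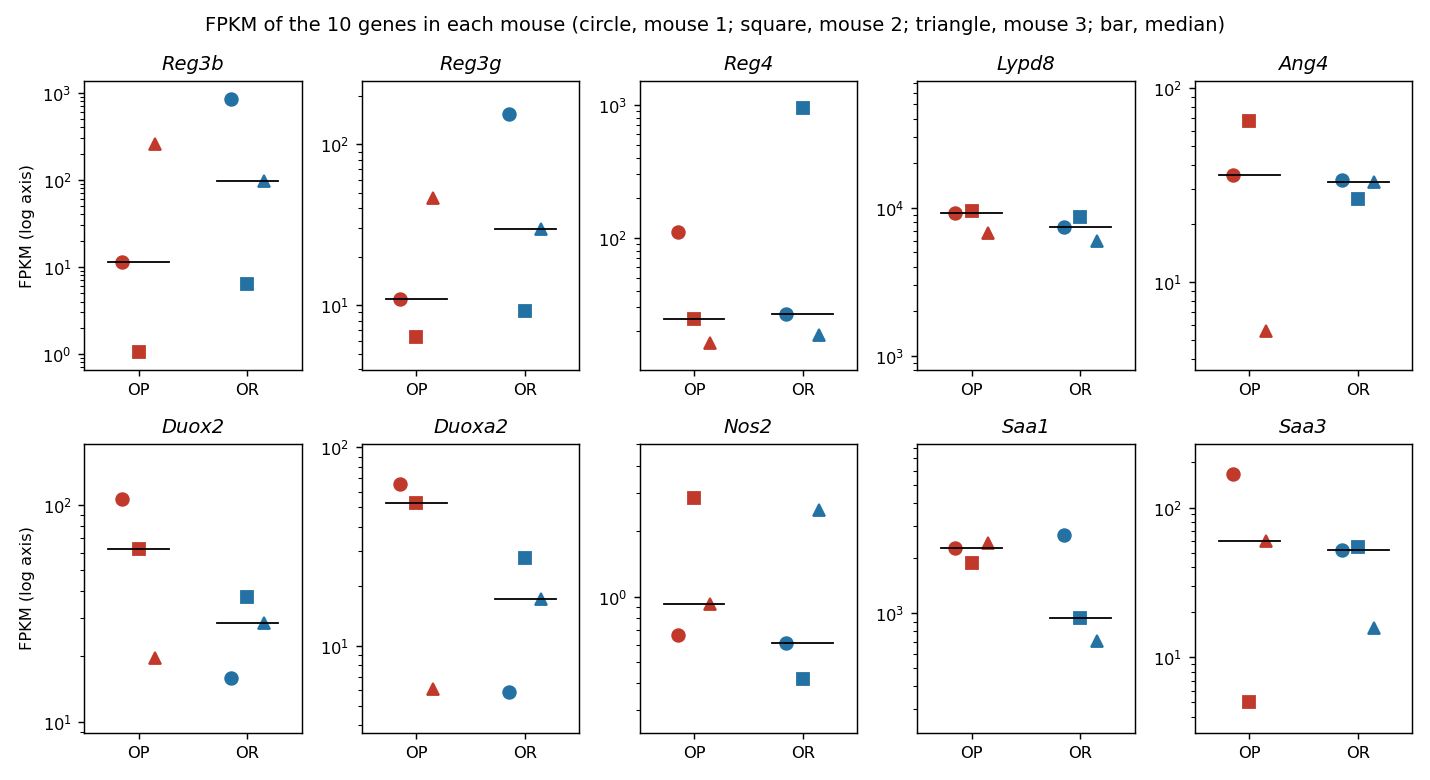
FPKM (log axis, a panel per gene with its own range) of the 10 genes in each OP mouse (red) and OR mouse (blue); symbols give the mouse number and bars the median of 3 mice. The OP and OR values overlap in every panel, and *Reg3b* runs from 1.04 to 851.72 FPKM while *Lypd8* stays between 5990.66 and 9581.04 FPKM.

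*Reg3b* was measured at 11.52, 1.04 and 259.83 FPKM in OP mice 1, 2 and 3 and at 851.72, 6.37 and 96.6 FPKM in OR mice 1, 2 and 3. Each group held a low and a high mouse, so the groups overlapped widely. The fitted log2 difference, OP minus OR, was −2.17 ± 2.10 (SE, n = 3 per group), with a 95% confidence interval from −7.09 to 2.74 and a limma-trend q = 0.945. A two-sided exact permutation test of the difference of means of log2(FPKM + 1), whose smallest p for 3 mice against 3 is 0.1, gave p = 0.5. Without OP mouse 2 the fitted difference was −0.57 ± 2.02, and leaving out each mouse in turn moved it between −4.07 and −0.51.

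*Reg3g* was measured at 10.94, 6.3 and 46.39 FPKM in OP mice and at 154.54, 9.16 and 29.65 FPKM in OR mice 1, 2 and 3. OR mouse 1 was the highest and OP mouse 2 the lowest, as in *Reg3b*, over a narrower range. The fitted log2 difference of *Reg3g* was −1.18 ± 1.04, with an interval from −3.61 to 1.25, and −0.62 ± 1.11 without OP mouse 2. It ranged from −2.11 without OR mouse 2 to −0.14 without OR mouse 1. The ratio of *Reg3b* to *Reg3g* ran from 0.165 in OP mouse 2 to 5.60 in OP mouse 3, so the gene with the higher level was not the same in every mouse.

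Over the 6 mice the log2 values of *Reg3b* and *Reg3g* had a Pearson correlation of 0.98 (exact permutation p = 0.00139, adjusted p = 0.00833 over the 6 gene pairs compared). Spearman's rho was 1.0 (exact permutation p = 0.00278, adjusted p = 0.00833). Without the 2 mice farthest from the median of *Reg3b*, r was 1.0, and without OP mouse 2 it was 0.98. After subtraction of the group means, r was 0.97, with an adjusted p = 0.0833 over the 36 pairings of mice within groups (exact permutation test; the unadjusted p of 0.0278 is the smallest they can give). The neighbours share sequence, and reads that fit both could have been divided between them, which was not tested.

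*Reg4*, a secreted lectin of the same family that marks deep crypt secretory cells of the colon, had another pattern. Its values were 111.04, 24.62 and 16.12 FPKM in OP mice and 26.73, 941.55 and 18.45 FPKM in OR mice 1, 2 and 3. OR mouse 2 was highest by a wide margin, and the remaining OR mice lay within the OP range. The fitted log2 difference was −1.12 ± 1.45, with an interval from −4.53 to 2.28, and it turned to 0.66 without OR mouse 2. Without OP mouse 2 it was −0.87 ± 1.68.

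*Ang4*, an antimicrobial ribonuclease of goblet and Paneth cells, had 35.67, 67.9 and 5.61 FPKM in OP mice and 33.62, 26.87 and 32.8 FPKM in OR mice. The OR mice lay close together, and the OP mice held both the highest and the lowest value. The fitted log2 difference was −0.32 ± 0.76 (limma-trend q = 0.961). It turned to 0.65 without OP mouse 3 and was −1.04 ± 0.64 without OP mouse 2. *Reg4* and *Ang4* had a Pearson correlation of 0.14 and a Spearman's rho of 0.26 over the 6 mice (exact permutation test, adjusted p = 0.8 and 0.714), and the mouse highest in each gene differed. Their r was 0.77 without the 2 mice farthest from the median of *Reg4* and 0.33 without OP mouse 2.

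*Lypd8* encodes a glycosylphosphatidylinositol-anchored protein that colonocytes shed into the inner mucus, where it binds flagella. It had 9263.75, 9581.04 and 6801.65 FPKM in OP mice and 7461.61, 8730.31 and 5990.66 FPKM in OR mice. These were the first or second highest values of any gene in each mouse, and *Lypd8* alone took 0.998% to 1.64% of the FPKM total. The fitted log2 difference was 0.21 ± 0.27, with an interval from −0.43 to 0.85 and a limma-trend q = 0.945, and 0.12 ± 0.33 without OP mouse 2. Its interval was the narrowest of the 10 genes.

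*Duox2* had 106.62, 62.39 and 19.68 FPKM in OP mice and 15.91, 37.52 and 28.49 FPKM in OR mice. OP mice 1 and 2 were above every OR mouse, while OP mouse 3 was second lowest. The means were 62.9 ± 43.5 FPKM and 27.3 ± 10.9 FPKM (SD, n = 3), a ratio of 2.303. On the log2 scale the exact permutation test gave p = 0.3. The log2 difference came to 0.96 ± 0.59, with an interval from −0.42 to 2.34 and a limma-trend q = 0.945, and 0.82 ± 0.68 without OP mouse 2.

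*Duoxa2* had 65.22, 52.74 and 6.11 FPKM in OP mice and 5.86, 27.89 and 17.26 FPKM in OR mice. The same mice were highest and lowest as in *Duox2*. Its log2 difference was 0.94 ± 0.89, with an interval from −1.15 to 3.02, and 0.50 ± 0.97 without OP mouse 2. The fitted difference was 1.62 for *Duox2* and 1.96 for *Duoxa2* without OP mouse 3, an unadjusted limma-trend p below 0.05 in both, with q = 0.364 and q = 0.420. Without OP mouse 1 it was 0.44 ± 0.55 for *Duox2* and 0.35 ± 0.96 for *Duoxa2*, and without OR mouse 1 it was 0.63 ± 0.63 and 0.35 ± 0.92, so its size rested on single mice in both groups.

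The log2 values of *Duox2* and *Duoxa2* had a Pearson correlation of 0.97 (exact permutation p = 0.00417, adjusted p = 0.0125) and a Spearman's rho of 1.0 (exact permutation adjusted p = 0.00833). Without the 2 mice farthest from the median of *Duox2*, r was 0.98, without OP mouse 2 it was 0.96, and after subtraction of the group means it was 0.98 (exact permutation adjusted p = 0.0833). The subunit and its maturation factor also kept a narrower ratio than the *Reg3* pair, with *Duox2* 1.18 to 3.22 times as high as *Duoxa2*. The other dual oxidase pair was near the floor, with *Duox1* and *Duoxa1* below 0.5 FPKM in all 6 mice.

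*Reg3g* and *Duox2* ran in opposite directions over the mice, with a Pearson correlation of −0.83 (exact permutation p = 0.0389, adjusted p = 0.0778) and a Spearman's rho of −0.83 (exact permutation p = 0.0583, adjusted p = 0.117). This did not pass after adjustment. The r was −0.75 without the 2 mice farthest from the median, −0.80 without OP mouse 2 and −0.80 after subtraction of the group means.

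*Nos2* was low, with 0.67, 2.84 and 0.93 FPKM in OP mice and 0.61, 0.42 and 2.49 FPKM in OR mice. In each group 1 mouse was well above the others. In the fit its OP minus OR difference was 0.21 ± 0.43 (limma-trend q = 0.957) and −0.15 ± 0.40 without OP mouse 2, and at this level the added 1 FPKM of the log scale shrinks any difference. Without OR mouse 2 it was −0.04 ± 0.47. *Nos2* and *Duox2* had a Pearson correlation of 0.14 and a Spearman's rho of 0.20 (exact permutation test, adjusted p = 0.8 and 0.714). Without the 2 mice farthest from the median of *Duox2* their r was 0.41, and without OP mouse 2 it was −0.16.

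*Saa1* had 2276.07, 1889.63 and 2415.59 FPKM in OP mice and 2662.45, 939.4 and 702.11 FPKM in OR mice. The OP mice lay within 1.28-fold of each other, and OR mouse 1 was above all of them while the other OR mice were below. On the log2 scale, OP minus OR was 0.85 ± 0.46, with an interval from −0.23 to 1.93, and 0.96 ± 0.53 without OP mouse 2. Without OR mouse 1 it was 1.42 ± 0.24, an unadjusted limma-trend p below 0.05, with q = 0.842, and without OR mouse 3 it was 0.46 ± 0.45. *Saa1* was 929 to 5107 times as high as *Saa2*, a near-identical neighbour to which shared reads could have been assigned, so the split between both genes is uncertain.

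*Saa3*, which is made locally by epithelium, macrophages and fat, had 166.79, 5.01 and 59.43 FPKM in OP mice and 52.25, 54.6 and 15.75 FPKM in OR mice. OP mice held the highest and the lowest value. The log2 difference came to 0.10 ± 1.13 (limma-trend q = 0.989) and 1.45 ± 0.62 without OP mouse 2 (limma-trend q = 0.770). It turned to −0.95 ± 1.03 without OP mouse 1. *Saa1* and *Saa3* had a Pearson correlation of 0.33 and a Spearman's rho of 0.37 (exact permutation test, adjusted p = 0.8 and 0.714), and r was 0.69 without OP mouse 2. Without the 2 mice farthest from the median of *Saa1*, r was also 0.69.

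**Figure D2:**
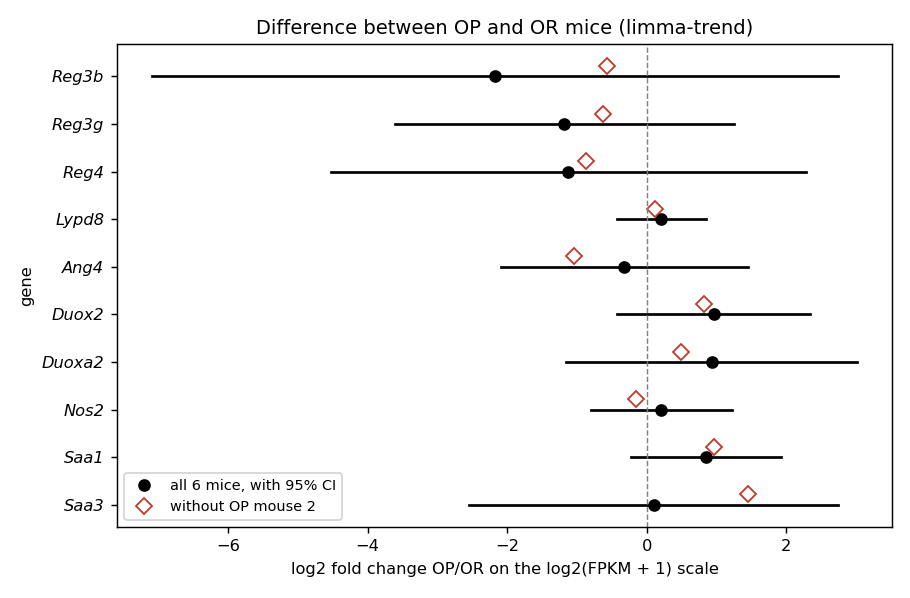
Fitted log2 fold change of OP over OR mice on the log2(FPKM + 1) scale for each gene, with its 95% confidence interval (black, all 6 mice), and the estimate without OP mouse 2 (open diamonds). All 10 intervals include 0, and the *Reg3b* estimate moves from −2.17 to −0.57 without that mouse.

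The width of these intervals came from the spread between mice of the same group. The SD within groups was 3.48 on the log2 scale for *Reg3b*, the highest of the 13520 genes tested, beside a median of 0.253 over all of them. It was 2.41 for *Reg4*, 1.87 for *Saa3*, 1.71 for *Reg3g*, 1.46 for *Duoxa2* and 1.24 for *Ang4*. Of the 10 genes, 9 had an SD above the 90th percentile of all genes tested, 8 above the 95th and 5 above the 99th. *Lypd8* was the exception, with an SD of 0.27 at percentile 55.6. The members were proposed with results of these mice known, so this count is a description.

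**Figure D3:**
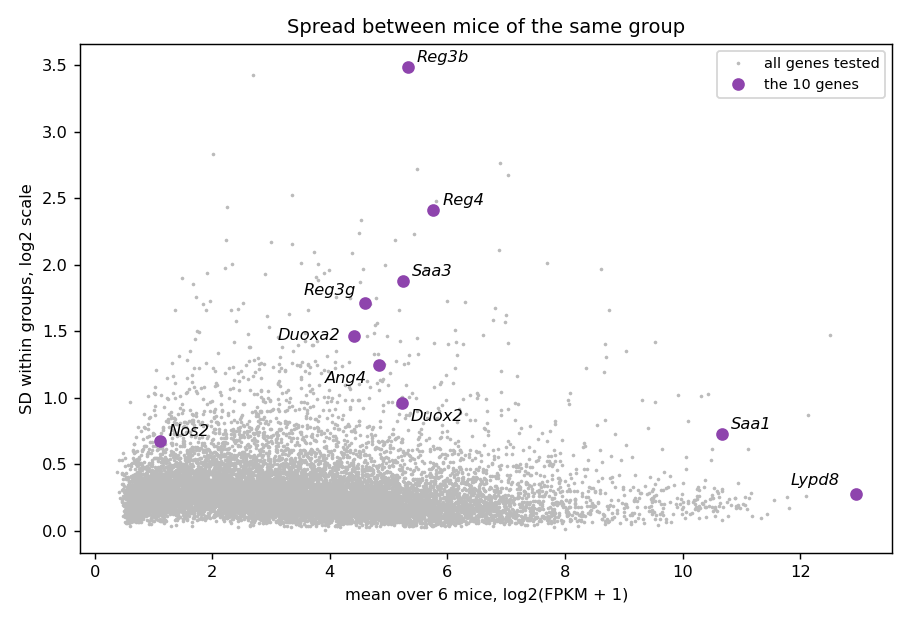
SD within groups (log2 scale) against the mean log2(FPKM + 1) over 6 mice for all 13520 genes tested (grey) and the 10 genes (purple). *Reg3b* lies highest of all at 3.48, and *Lypd8* lies furthest to the right with an SD of 0.27.

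From low to high, *Reg3b* and *Reg3g* had the order OP 2, OR 2, OP 1, OR 3, OP 3, OR 1, shared by 39 of the 13520 genes tested (0.289%), those 2 included. *Hoxb6* was among them, while *Hoxb7*, *Hoxb8* and *Hoxb9* were not. *Fabp6*, the bile acid binding protein of the ileum, had 74.19, 45.9 and 35.11 FPKM in OR mouse 1, OR mouse 3 and OP mouse 3 and at most 11.17 FPKM in the other 3 mice, and the same 3 mice were the highest for *Reg3b* and *Reg3g*. That split was common: 24.2% of all genes tested had these 3 mice as their highest. Of the 6 Paneth and small intestinal genes tested, 2 had it, *Fabp6* and *Mmp7*. It was found in 1 of 15 colonocyte, 1 of 17 goblet cell and 1 of 15 pan-epithelial markers. *Fabp2*, the most abundant small intestinal gene of the same list, ran the other way, with 2393.18, 1747.69 and 1016.94 FPKM in OP mouse 1, OR mouse 2 and OP mouse 2 and 665.12 to 811.44 FPKM in the others.

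*Duox2* and *Duoxa2* had the order OR 1, OP 3, OR 3, OR 2, OP 2, OP 1, shared by 31 genes tested (0.229%), those 2 included. OP mice 1 and 2 and OR mouse 2 were the 3 highest for *Duox2*, *Duoxa2* and *Lypd8* and the 3 lowest for *Reg3b* and *Reg3g*. *Aqp8*, a water channel of surface colonocytes, had 1060.04, 1084.04 and 357.96 FPKM in these mice and 10.08 to 39.4 FPKM in the others. *Slc26a3*, the chloride and bicarbonate exchanger of the same cells, had 235.02 to 415.15 FPKM in them and 50.32 to 62.84 FPKM in the others. Of the 15 colonocyte markers, these and *Muc3* and *Guca2a* had the same 3 highest mice as *Duox2*, 4 in all, and the other 11 did not. *Car1*, carbonic anhydrase 1 and the most abundant of them, was lowest in OP mouse 2 at 1054.43 FPKM. Among the 15 pan-epithelial markers 7 had these 3 highest mice, *Krt8*, *Krt20*, *Vil1* and *Lgals4* among them, against 4.37% of all genes tested. The 3 highest mice of *Duox2* also had the lowest medians over all genes tested, 7.67 to 9.72 FPKM against 10.44 to 10.73 FPKM in the other mice. The part of this general difference in the orders of mice was not tested. The stretch of colon sampled is not given in the sources used here, and its part in these values was not tested.

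**Figure D4:**
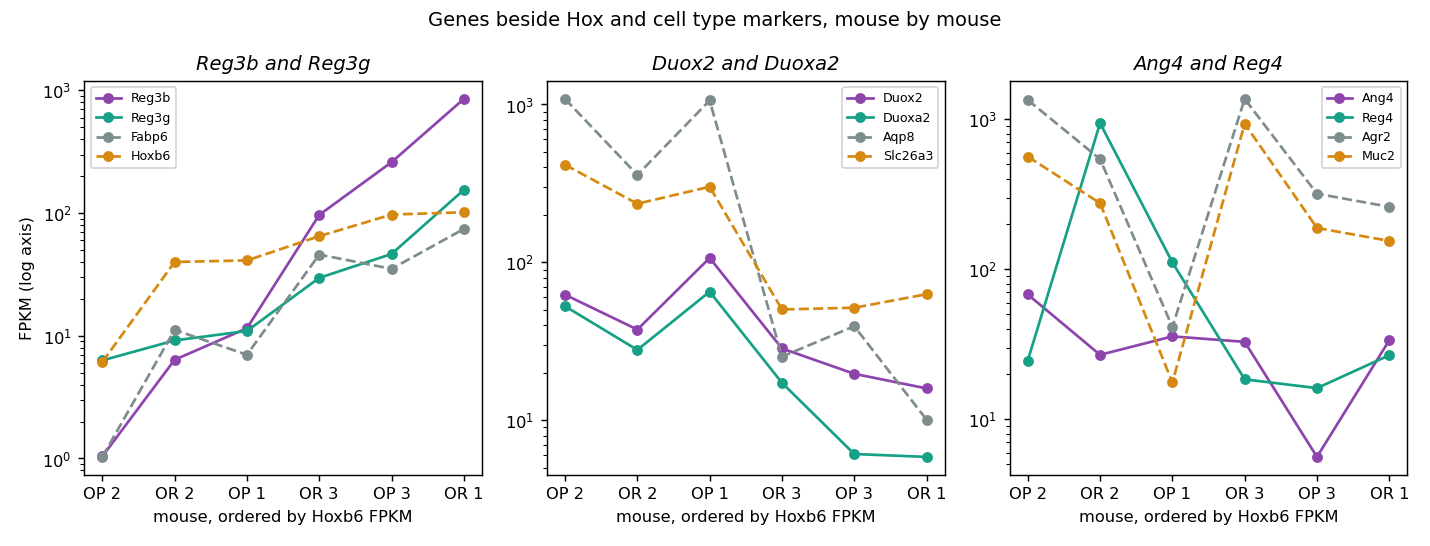
FPKM (log axis) of *Reg3b* and *Reg3g*, of *Duox2* and *Duoxa2*, and of *Ang4* and *Reg4* in each mouse (solid lines), beside *Hoxb6*, *Fabp6* and markers of colonocytes and goblet cells (dashed lines), with mice placed by their *Hoxb6* level, an order chosen after the values were seen. *Reg3b* has the same order of mice as *Hoxb6*, so its climb from 1.04 to 851.72 FPKM follows from the placing. *Duoxa2* goes from 52.74 in OP mouse 2 to 5.86 FPKM in OR mouse 1.

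Cell type markers also varied between the mice. Their counts are to be read against all genes tested, of which 70.1% had a fitted difference below 0 (median −0.10). An unadjusted p below 0.05 was reached by 477 lower genes (3.53%) and 68 higher ones, and without OP mouse 2 by 615 (4.59%) and 172. In whole colon, fewer cells of a type and less RNA per cell cannot be told apart. The fitted difference was below 0 for all 17 markers of goblet and deep crypt secretory cells, a list that holds *Reg4* and *Ang4*. Its median was −1.06 on the log2 scale, and 2 of the markers (*Tff3* and *Zg16*) reached an unadjusted p below 0.05 and 0 were called. In the 5 mice other than OP mouse 2, 16 were lower and 1 higher with a median of −1.39. *Tff3* (−0.85) and *Zg16* (−1.57) then missed that level, while *Clca1*, *Agr2*, *Atoh1* and *Spdef* reached it, with *Agr2* moving from −1.14 to −2.32. The summed level of the list ran from 1413 to 5836 FPKM in OP mice and from 2166 to 7953 FPKM in OR mice. *Muc2*, the gel-forming mucin, was lowest in OP mouse 1 at 17.59 FPKM, where *Reg4* was second highest, and highest in OR mouse 3 at 933.17 FPKM, where *Reg4* was second lowest. The part of goblet cell content in the *Reg4* and *Ang4* values was not tested.

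Of 15 colonocyte markers, a list that holds *Saa1*, 12 were higher in OP mice and 3 lower, with a median of 0.28, and 1 (*Ceacam20*, 0.84) reached an unadjusted p below 0.05. Leaving out OP mouse 2, 14 were higher and 1 lower, the median was 0.33, and *Ceacam20* (0.82) was again the 1 marker at that level. Their summed level was 10910 to 26550 FPKM in OP mice and 11790 to 23640 FPKM in OR mice. The 15 pan-epithelial markers had a median of 0.06, 11 higher and 4 lower, and 0 reached an unadjusted p below 0.05, as without OP mouse 2 (10 higher, 5 lower, median 0.08).

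Myeloid and stromal markers were lower in OP mice at an unadjusted p below 0.05 in 9 of 12 macrophage genes (median −0.85) and in 9 of 12 fibroblast genes (median −0.87), and 0 were called in either list. In the fit without OP mouse 2, 4 macrophage genes were lower at that level and 1 (*Mertk*, 0.68) was higher, with a median of −0.62, and 6 fibroblast genes were lower, with a median of −0.79. *C1qb* (−0.99, limma-trend q = 0.864) and *Dcn* (−2.03, q = 0.624) were lower at that level with and without that mouse. Among the lower macrophage genes *Adgre1*, *Mrc1*, *Cd163* and *Fcgr1* were low, at 0.19 to 3.31 FPKM over all 6 mice. *Lyz2*, the most abundant macrophage marker at 48.71 to 166.37 FPKM, was at −0.10, and at 0.37 without OP mouse 2. The macrophage sum was 106.3 to 299.6 FPKM in OP mice and 215 to 278.9 FPKM in OR mice, and the fibroblast sum was 124.4 to 197.7 FPKM and 284.9 to 525 FPKM. Smooth muscle markers were lower in 10 of 10 genes and adipocyte markers in 9 of 10, with 0 and 1 (*Cfd*) at an unadjusted p below 0.05. With OP mouse 2 left out the smooth muscle count was 10 of 10 lower, 2 of them (*Acta2* and *Tagln*) at that level, and 6 of 10 adipocyte genes were lower, with *Lep* (1.11) higher at that level and *Cfd* (−1.62) no longer past it. Their sums were 1899 to 2808 and 81.13 to 240.2 FPKM in OP mice and 2287 to 4188 and 158.4 to 474 FPKM in OR mice. The part of these cells in the values of *Nos2* and *Saa3*, which macrophages and fat can make, was not tested.

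Neutrophil markers were near the floor: 9 of the 13 in the table were below 0.5 FPKM in all 6 mice, and the list summed to 1.86 to 15.72 FPKM in OP mice and 2.21 to 3.3 FPKM in OR mice. *Ly6g* had 12.54 FPKM in OP mouse 2 and at most 0.65 FPKM elsewhere. The Paneth cell defensins *Defa24*, *Defa3* and *Defa22* were below 0.5 FPKM in every mouse. Other Paneth cell genes were not all at the floor. Over all 6 mice *Lyz1* had 4.37 to 21.07 FPKM, *Mmp7* 0 to 8.31 FPKM and *Itln1* 0.65 to 3.08 FPKM. Paneth cells belong to the small intestine. In the list of Paneth and small intestinal genes, 6 were tested, 4 were higher and 2 lower in OP mice, and *Alpi* (0.64, limma-trend q = 0.945) was the 1 gene with an unadjusted p below 0.05, also without OP mouse 2 (0.57). That list summed to 789.9 to 2454 FPKM in OP mice and 826.9 to 1794 FPKM in OR mice, most of it *Fabp2*.

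Among other antimicrobial genes, 22 of the 27 in the table were tested, 12 were higher and 10 lower in OP mice (median 0.02), and 0 were called. *Lcn2*, the siderophore-binding lipocalin 2, had 0.48, 0.87 and 0.67 FPKM in OP mice and 2.26, 2.04 and 2.23 FPKM in OR mice. These values are low. The groups did not overlap, as in 2 of the 27 genes of this list and 8.44% of all genes tested. The log2 difference of *Lcn2* was −0.93 with an unadjusted p below 0.05 (limma-trend q = 0.624). *Zg16*, a lectin that binds Gram-positive bacteria (−1.72), and *Rnase4*, a ribonuclease (−0.78), were also lower at an unadjusted limma-trend p below 0.05, with q = 0.945 in both. Without OP mouse 2, 6 of 21 were higher and 15 lower (median −0.20), and *Lcn2* (−1.01) and *Rnase4* (−0.76) were at that level while *Zg16* (−1.57) was not. *Mptx1*, a mucosal pentraxin, had the largest difference at 2.83 (limma-trend q = 0.945), with 517.9 FPKM in OP mouse 2 and 2.82 to 47.11 FPKM in the other mice, and was at 1.27 without OP mouse 2. The most abundant were *Sprr2a1* and *Sprr2a2*, near-identical small proline-rich genes whose shared reads cannot be split with certainty, with up to 3780.12 and 4287.62 FPKM in OP mouse 1. Their 3 highest mice were those of *Duox2*, as in 3 of the 22 genes tested of this list, all of them *Sprr2a* genes.

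Of the other oxidase and nitric oxide synthase genes, 14 were tested, 6 were higher and 8 lower in OP mice, and 0 were called. *Nos3*, the endothelial synthase, was the 1 gene at an unadjusted p below 0.05 (−0.43, limma-trend q = 0.945). It was low, with 0.47 to 0.79 FPKM in OP mice and 0.92 to 1.52 FPKM in OR mice. *Cyba*, the p22phox subunit, had 86.37 to 159.18 FPKM, and *Noxo1*, the organizer of the colonic oxidase *Nox1*, had 37.43 to 81.34 FPKM. *Nox1* itself was highest in OP mouse 2 at 10.93 FPKM and was 1.13 to 4.74 FPKM elsewhere. Its 3 highest mice, OP mouse 2, OR mouse 2 and OP mouse 1, were those of *Duox2*, with OP mouse 1 (1.74 FPKM) little above OR mouse 1 (1.39 FPKM). *Nox1* was the 1 gene of the 14 with these 3 highest mice, against 4.37% of all genes tested. With OP mouse 2 left out, 9 of the 14 genes were higher and 5 lower, 0 reached an unadjusted p below 0.05, and *Nos3* was at −0.37.

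Among other acute phase genes, 7 were tested, 3 were higher and 4 lower in OP mice, and 0 were called. *Cp*, the copper-binding ferroxidase ceruloplasmin, was the 1 gene at an unadjusted p below 0.05 (−0.86, limma-trend q = 0.798). It was low, with 0.38 to 0.92 FPKM in OP mice and 1.47 to 2.36 FPKM in OR mice. *Hp*, haptoglobin, had 0 to 7.38 FPKM in OP mice and 0.35 to 3.18 FPKM in OR mice. Over the 5 mice other than OP mouse 2, *Cp* was at −0.75 and *Hp* moved from 0.53 to 1.45, both at an unadjusted p below 0.05. The liver-type acute phase genes *Orm2*, *Itih4* and *Hamp* were below 0.5 FPKM in every mouse, unlike *Saa1*. *Orm1* was low but above that level in some mice, with 0.12 to 0.89 FPKM in OP mice and 0 to 0.51 FPKM in OR mice. Other genes of the list were measured in every mouse, *Cfb* at 41.87 to 78.8 FPKM and *C3* at 7.43 to 26.24 FPKM.

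In the interleukin-22 and interleukin-17 pathway, 16 genes were tested, 9 were higher and 7 lower in OP mice (median 0.02), and 0 reached an unadjusted p below 0.05. The cytokines *Il22*, *Il17f* and *Il17c*, with *Il23a* and the receptor *Il23r*, were below 0.5 FPKM in all 6 mice, so the ligands could not be compared with their targets. *Il10rb* (57.56 to 74.82 FPKM) and *Il17rc* (46.66 to 100.83 FPKM), receptor subunits for these cytokines, were measured in every mouse. The decoy receptor *Il22ra2* had the largest difference at 0.79 (limma-trend q = 0.945). Without OP mouse 2 it was 1.2, at an unadjusted p below 0.05, the 1 gene of the list to reach it, and 8 genes were higher and 8 lower (median 0.06).

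Among genes that sense microbes, 26 were tested, 11 were higher and 15 lower in OP mice, and 0 were called. *Cebpb* (−0.67, limma-trend q = 0.945), *Cebpd* (−0.70, q = 0.858) and *Lbp* (−0.72, q = 0.798) were lower at an unadjusted p below 0.05, and also without OP mouse 2 (−0.68, −0.79 and −0.65), where 15 genes were higher and 11 lower. The first and second encode transcription factors of the acute phase response, and the third a protein that presents bacterial lipopolysaccharide. *Lbp* was low, with 0.48 to 0.82 FPKM in OP mice and 1.35 to 2.14 FPKM in OR mice. *Nfkbia*, the inhibitor of NF-kappaB, had 45.53 to 58.75 FPKM over all 6 mice, a narrow range beside the genes of the *Reg3* family.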

How the data were processed

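Colon mRNA of 3 OP and 3 OR mice was sequenced as strand-specific libraries. The authors deposited FPKM values for 17778 gene symbols. Per the methods, SOAPnuke filtered the reads, Bowtie2 placed them on a reference gene set and RSEM estimated expression. The labels give Bowtie2 2.2.5 and RSEM 1.2.12, the methods give other versions, and the submitters' processing notes also name HISAT2 2.0.4 and GRCm39. RSEM divides reads shared by paralogues, which can move values between near-identical genes. Depth is unknown. Groups and mouse numbers came from the labels. The labels number the samples of a group without an animal identifier, so each was taken as a separate mouse, and p-values measure the spread between these samples.

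The 13520 genes with 3 or more mice at or above 0.5 FPKM were compared on log2(FPKM + 1) with limma-trend (R 4.3.3 and limma 3.58.1). No covariates were used, and q-values are Benjamini-Hochberg adjusted over all genes tested. The fit was tested on simulated data. The thresholds were those of the methods. DESeq2 requires counts and was not run. Single genes were also compared with exact permutation tests on log2(FPKM + 1) (Python 3.11.15, 20 arrangements). For 6 gene pairs, Pearson and Spearman correlations had exact permutation p over 720 pairings, adjusted over the pairs. Promoters came from RefSeq (GRCm38.p6) by symbol and were aligned with Biopython 1.88. The deposited table holds no coordinates.

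The 10 genes and all lists were chosen with earlier results of these data known. All 10 genes are given. Of each other list, the genes named are among those with an unadjusted p below 0.05, the 3 with the highest mean FPKM and the 2 with the largest difference. Further genes that are named were chosen after their values were seen. Alternatives were other scalings, pseudocounts, filters and thresholds, limma without trend, sample weights, a replicate block and each mouse left out. Results without OP mouse 2 in the correlations were added after the data were seen.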

Additional observations from a re-analysis of the deposited data

How the results depend on the processing

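The number of the 10 genes called was 0 under every alternative run. Over all genes, 3 were called, 2 without trend and 3 without a fold change threshold. The count was 0 with median-of-ratios scaling, rescaling to TPM, a pseudocount of 0.1, no filter, an FPKM of at least 1 in all 6 mice or q below 0.05, and 5 with sample weights. With each mouse left out it was 0 to 1. The OP and OR mouse numbers belong to different mice, and the labels name no pairing. Deviations of same-numbered mice from their group means had correlations of −0.144, −0.157 and 0.0709. With 3 mice per group these cannot show that the numbers pair nothing. With the replicate block 0 genes were called.

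Of 139 refitted differences of the 10 genes, 131 kept their direction and 8 reversed, and 3 had an unadjusted p below 0.05. *Reg3b*, *Reg3g*, *Lypd8*, *Duox2*, *Duoxa2* and *Saa1* never reversed. *Reg4* reversed to 0.66 without OR mouse 2, *Ang4* to 0.65 without OP mouse 3, and *Nos2* to −0.15 without OP mouse 2 and −0.04 without OR mouse 2. *Saa3* reversed to −0.74 with sample weights and to −0.95, −0.21 and −0.47 without OP mouse 1, OP mouse 3 and OR mouse 3. With each mouse left out, *Reg4* ranged from −2.14 to 0.66, *Ang4* from −1.04 to 0.65, *Nos2* from −0.15 to 0.61 and *Saa3* from −0.95 to 1.45. Only the mice used, or their weights, differed in these fits. The median of the 10 genes (0.15) was −0.22 to 0.37 with each mouse left out, lowest without OP mouse 1. Median-of-ratios scaling moved the median of all genes from −0.10 to 0.01.

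The correlations of *Reg3b* with *Reg3g* (1.0 without the 2 extreme mice, 0.97 within groups) and of *Duox2* with *Duoxa2* (0.98 and 0.98) kept their size. Within groups both had an exact permutation adjusted p of 0.0833, since fewer arrangements are possible. Without the 2 extreme mice no p was computed. That of *Duox2* with *Nos2* reversed to −0.16 without OP mouse 2. Unknown depth limits what can be said of genes near 1 FPKM such as *Nos2*, *Nos3*, *Cp*, *Lbp* and *Lcn2*.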
